A study of Homo sapiens with 30 samples.

Results

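KMT2A, KMT2B, KMT2C, KMT2D, KMT2E, SETD1A and SETD1B are the human genes of the KMT2 and SETD1 families, and their RNAs were followed here through the cytosol and the TIA1 granule fraction of a pair of HEK293 lines. The 7 genes were taken by symbol from a raw count table of 60664 genes, and all 7 were found there. They had been picked because long transcripts such as these were among the RNAs most enriched in granules of arsenite-treated cells, so the granule-to-cytosol ratios under arsenite chose them and are given below as a description, with no test. HEK293 cells are a long-established line from human embryonic kidney. Their Flp-In T-REx derivative carries a docking site for a transgene under a promoter that tetracycline switches on. Both lines carried a GFP-tagged form of TIA1a, a protein that binds RNA and helps to build stress granules. In the WT line the fused protein was wild type, and in the WDM line it had the mutation of Welander distal myopathy, a late-onset muscle disease. Cytosol RNA came from cells of each line in 3 states, which were no treatment, tetracycline alone, and tetracycline followed by 0.5 mM sodium arsenite for 60 min. Granule RNA came from tetracycline-treated cells of each line with and without arsenite, as the part of a high-speed pellet pulled down through the GFP tag. Each of the 10 groups had 3 libraries of ribosome-depleted total RNA. Nothing in the labels says that the 3 came from separate cultures, so p-values measure the spread between these libraries, which may be technical.

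The proteins of these families write methyl groups on lysine 4 of histone H3, a mark of promoters and enhancers that are in use. SETD1A and SETD1B are the catalytic subunits of the complexes that place most trimethylation of this residue, KMT2A and KMT2B act at promoters of developmental genes such as the HOX clusters, and KMT2C and KMT2D place monomethylation at enhancers. KMT2E has a SET domain that is thought to be inactive and reads the mark instead. All but KMT2E work in COMPASS-type complexes around the shared subunits WDR5, RBBP5, ASH2L and DPY30. KMT2A is also the gene broken by translocations in leukaemia, and loss of KMT2D causes most cases of Kabuki syndrome.

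On GRCh38, as annotated in GENCODE v44, KMT2A (ENSG00000118058) lies on chromosome 11 from 118436456 to 118526832 and KMT2B (ENSG00000272333) on chromosome 19 from 35717973 to 35738880, both on the plus strand. KMT2C (ENSG00000055609) lies on chromosome 7 from 152134922 to 152436644 on the minus strand, and KMT2D (ENSG00000167548) on chromosome 12 from 49018975 to 49060794 on the minus strand. KMT2E (ENSG00000005483) lies on chromosome 7 from 104940943 to 105115019, SETD1A (ENSG00000099381) on chromosome 16 from 30957294 to 30984664, and SETD1B (ENSG00000139718) on chromosome 12 from 121804009 to 121832656, all 3 on the plus strand. Their longest annotated transcripts measure 20686 bases for KMT2D, 16860 for KMT2C, 16725 for KMT2A, 8557 for SETD1B, 8485 for KMT2B, 7782 for KMT2E and 6451 for SETD1A. The median over protein-coding genes is 3337 bases, and 10% of them exceed 7554, so SETD1A is the only member below that mark. By base composition of the canonical transcript the members fall into a GC-poor set, with KMT2E at 41.9%, KMT2C at 45.02% and KMT2A at 46.9%, and a GC-rich set, with KMT2D at 59.8%, SETD1B at 61.4%, SETD1A at 62.6% and KMT2B at 63.5%. The median over protein-coding genes is 49.1%.

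TIA1 is known to bind U-rich RNA, so the 25 bases of each 3' UTR with the most U are shown, written as DNA from 5' to 3' with runs of at least 5 T in capitals.
KMT2A: tcggTTTTTaataaTTTTTTatttt
KMT2B: ttcttttctatgcacTTTTTTattt
KMT2C: ttttcTTTTTTTTTTgtttgTTTTT
KMT2D: ttttaggtttgTTTTTgttttgttt
KMT2E: tatgatcTTTTTTTTTTTTTTagtt
SETD1A: aTTTTTataattgtgattaaacttt
SETD1B: tgTTTTTTgttgTTTTTTTTTTatt
On GRCh38 they lie at chr11:118523674-118523698, chr19:35738798-35738822, chr7:152136547-152136571, chr12:49019848-49019872, chr7:105113594-105113618, chr16:30984629-30984653 and chr12:121831885-121831909 in the order given, on the strand of each gene. The letters TTTTT, read on the transcript's strand with overlaps counted, occur 45 times in the 3' UTR of KMT2A, 36 times in that of SETD1B, 35 times in that of KMT2C, 33 times in that of KMT2E and 26 times in that of KMT2D, but 2 times each in those of KMT2B and SETD1A. The median over 19936 protein-coding genes with a 3' UTR is 4 and the 90th percentile is 36. Of these genes 73.6% hold at least 1 copy. T makes up 37% of the 3' UTR in KMT2E, 35.65% in KMT2C and 23.77 to 29.29% in the other members. The median share over those genes is 29.53%. The letters ATTTA, the core of AU-rich elements, occur 1 time each in KMT2B and SETD1A and 5 to 7 times in the others, and 66.2% of genes hold at least 1 copy. KMT2B and SETD1A have short 3' UTRs, of 324 and 644 bases, against 1689 to 4663 in the other members. The median over protein-coding genes with a 3' UTR is 1029 bases. A match describes these letters only and is not evidence of binding.

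Total counts ran from 5906167 to 27419145 per library, and values are given as CPM, the counts of a gene scaled to library depth with TMM factors over all 30 libraries. Each fit used TMM factors of its own libraries, so log2 fold changes can differ from ratios of CPM. The transgene could not be checked in this table, because TIA1 had 3 counts in all 30 libraries together. Of 6 genes used as marks of HEK293 cells, KRT8, KRT18, CDH2, NEFL and VIM were detected in every library, with lowest values of 16.2 to 165 CPM, and NEFM was at or below 0.482 CPM. Of 8 marks of other cell types, HBB was at 0 and the summed level stayed between 0.924 and 3.94 CPM in each library. A cytosol library of the WT line with tetracycline, replicate 1, stood apart from its group, and the main results that rest on it are given with and without it. KMT2A shares 18.3% of its exon bases with a second protein-coding gene annotated on the same strand, which had 115 counts in all libraries together. KMT2D shares 2.6% of its exon bases with another protein-coding gene on its strand, which had 29 counts. KMT2E shares 2.69% of its exon bases with SRPK2 on the opposite strand, and parts of KMT2C have near-identical copies elsewhere in the genome. The counts of these genes therefore carry some uncertainty.

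In untreated cytosol, KMT2C was the most abundant member and SETD1A and SETD1B, whose libraries overlapped in both lines, were the least. In WT libraries KMT2C had 153, 126 and 136 CPM (mean 138 ± 13.8, SD, n = 3), KMT2A 60.1 ± 8.28, KMT2D 50.8 ± 8.07, KMT2E 44 ± 2.97, KMT2B 25.2 ± 1.19, SETD1A 14.5 ± 1.72 and SETD1B 13.9 ± 0.711 CPM. Per kilobase of the longest transcript, the order of levels in WT was KMT2C (8.21 CPM per kb), KMT2E (5.65), KMT2A (3.59), KMT2B (2.97), KMT2D (2.45), SETD1A (2.25) and SETD1B (1.62). Only KMT2D and SETD1A overlapped among neighbours in that order. The WDM line had the same order in untreated cytosol, with 10.4 CPM per kb for KMT2C and 1.38 for SETD1B and no neighbours overlapping. In granules with tetracycline alone the order per kilobase was different. KMT2A moved to the second place in both lines, with 29.5 CPM per kb in WT and 20.4 in WDM behind KMT2C at 35.2 and 33.5, and it overlapped KMT2C in WT and KMT2E, the third, in WDM. KMT2E, the second in cytosol, was the fifth in WT granules at 16.4 CPM per kb, where it overlapped KMT2D at 17.5. SETD1A and SETD1B remained the lowest, at 9.37 and 5.05 CPM per kb in WT and 5.12 and 3.42 in WDM.

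**Figure D1:**
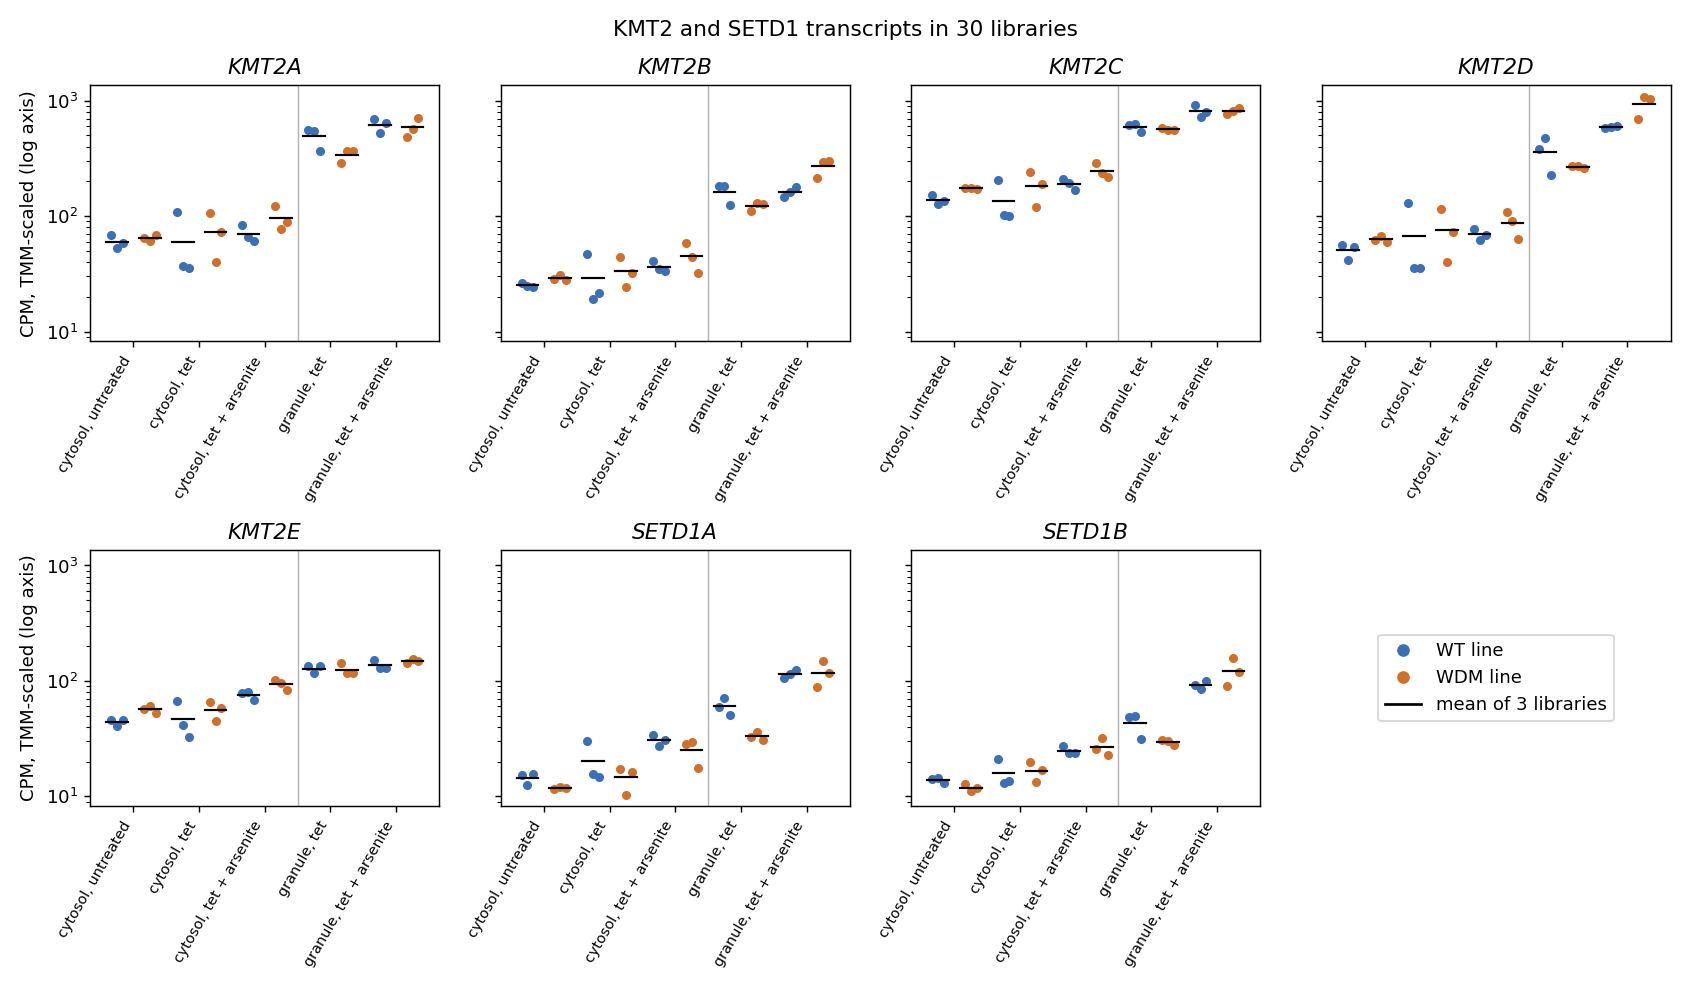
Levels of the 7 transcripts in 30 libraries, as TMM-scaled CPM on a log axis; each point is a library, blue for the WT line and orange for the WDM line, bars are means of 3, and tet stands for tetracycline. Every granule library of a member lies above the cytosol libraries of the same line and treatment; under arsenite KMT2E has the smallest step, from a mean of 75.6 to 136 CPM in WT.

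Treatment with tetracycline, meant to switch on the transgene, was not followed by a called change of any member in cytosol. With tetracycline against untreated, 0 of 7 were called in WT, where 5.31% of the 16670 genes tested were called, and 0 of 7 in WDM, where 6.3% were (edgeR quasi-likelihood test, called at a Benjamini-Hochberg adjusted p under 0.05). DESeq2 also called 0 in both lines, and the only member with an unadjusted p under 0.05 was SETD1B in WDM, at 12.8, 11.1 and 11.7 CPM untreated and 19.7, 13.4 and 16.9 with tetracycline (log2 fold change 0.49, SE 0.17, adjusted p 0.0897). Without WDM tetracycline replicate 2 it was called (0.62, adjusted p 0.0478). In WT, 55.1% of all calls were higher with TMM and 43.9% by library size alone. The tetracycline groups were the most uneven of the cytosol groups. KMT2A had 108, 37.1 and 35.6 CPM in WT and 106, 40.2 and 73.2 in WDM. KMT2D had 129, 35.3 and 35.7 CPM in WT and 115, 39.6 and 72.4 in WDM. In WT, replicate 1 was the high library for all 7 members, and in WDM replicate 2 was the low one for all 7. Among the nuclear-retained RNAs, NEAT1 was high and low in the same libraries. NEAT1, the scaffold RNA of paraspeckles, had 139, 50.6 and 57.9 CPM in WT and 167, 65.4 and 157 in WDM, and the summed level of NEAT1, MALAT1, KCNQ1OT1, MEG3 and SNHG14 ran from 221 to 534 CPM in WT and from 338 to 648 in WDM. In untreated cytosol the same sum ran from 322 to 397 CPM in WT and from 629 to 682 in WDM. MEG3 was at or near 0 throughout. With tetracycline against untreated, the 4 nuclear-retained RNAs tested had a median log2 fold change of -0.19 in WT and -0.24 in WDM. The members had medians of 0.12 and 0.20, and the list as a whole did not follow them in this comparison. The part of nuclear RNA in these members' values was not tested. Without WT tetracycline replicate 1, the log2 fold change of KMT2A with tetracycline went from -0.08 to -0.79 and that of KMT2D from 0.31 to -0.58, and neither was called.

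**Figure D2:**
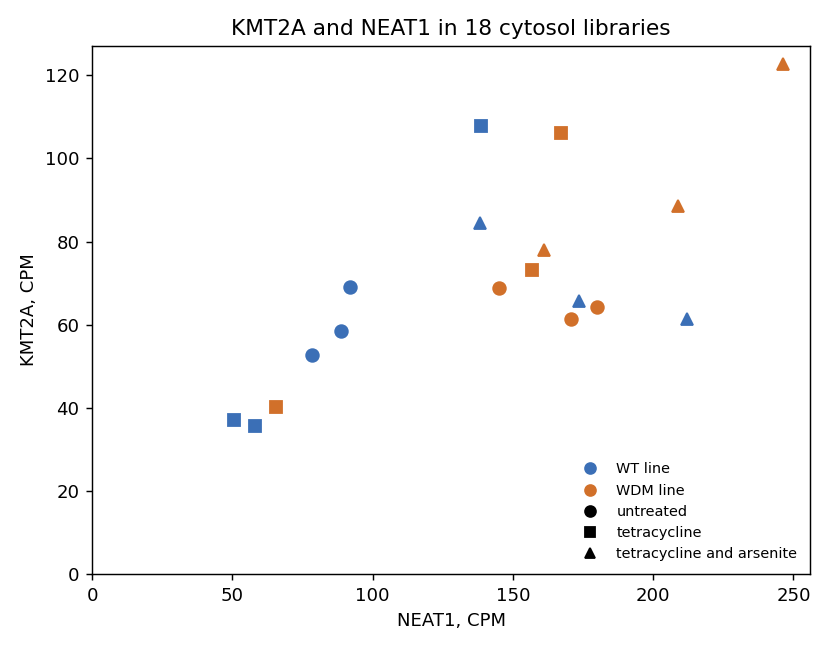
CPM of KMT2A against CPM of NEAT1 in the 18 cytosol libraries; colour gives the line and shape the treatment. The 3 libraries lowest in KMT2A, at 35.6 to 40.2 CPM, are also the 3 lowest in NEAT1, at 50.6 to 65.4 CPM, and all are tetracycline libraries.

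All 7 transcripts were more abundant in the granule fraction than in cytosol of cells that had tetracycline but no arsenite, in both lines. These granule libraries were not part of the arsenite ratio that chose the members. The members were, however, chosen as long transcripts and with earlier results of these data known. In the WT line KMT2A, the most enriched, had 562, 548 and 368 CPM in granules against 108, 37.1 and 35.6 in cytosol, a log2 fold change of 3.13 (SE 0.368, edgeR adjusted p 1.03e-07). KMT2B had 181, 181 and 125 CPM against 47.1, 19.1 and 21.6 (log2 2.57, SE 0.276, adjusted p 1.04e-08). KMT2D had 379, 478 and 229 CPM against 129, 35.3 and 35.7 (log2 2.54, SE 0.432, adjusted p 2.61e-05). No granule library of these genes fell as low as the highest cytosol library. KMT2C had 616, 626 and 541 CPM in granules and 206, 103 and 99.4 in cytosol (log2 2.23, SE 0.227). SETD1A had 59.6, 70.7 and 50.9 CPM in granules and 30.1, 15.5 and 14.7 in cytosol (log2 1.68, SE 0.236). The least enriched were KMT2E, at 134, 116 and 134 CPM against 67.2, 41.1 and 32.7 (log2 1.54, SE 0.178), and SETD1B, at 48.7, 49.6 and 31.5 CPM against 21.1, 13 and 13.7 (log2 1.52, SE 0.202). So 7 of 7 were called higher, with a median log2 fold change of 2.23, in a comparison where 39.5% of 18141 genes were called higher and 75.7% in either direction, with a median of 0.07 over all genes. KMT2A, KMT2B and KMT2D lay above the 90th percentile of all genes, a log2 fold change of 2.32, and KMT2E and SETD1B at percentiles 79.7 and 79.4. When WT tetracycline replicate 1 in cytosol was left out, the estimates were higher for every member and 7 of 7 were again called. They were then 3.81 for KMT2A, 3.39 for KMT2D, 3.04 for KMT2B, 2.6 for KMT2C, 2.05 for SETD1A, 1.84 for KMT2E and 1.73 for SETD1B, which moved KMT2D from the third to the second place. CPM are shares of a library, so more of a transcript and less of the other RNA in a fraction cannot be told apart.

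In the WDM line with tetracycline alone, the same direction held with smaller estimates. KMT2A had 291, 365 and 369 CPM in granules and 106, 40.2 and 73.2 in cytosol (log2 2.23, SE 0.356, edgeR adjusted p 9.45e-06). SETD1B, at the other end, had 30.5, 29.8 and 27.6 CPM in granules and 19.7, 13.4 and 16.9 in cytosol (log2 0.83, SE 0.202, adjusted p 0.000641). The groups did not overlap for either gene. Between them came KMT2B (log2 1.87), KMT2D (1.82), KMT2C (1.62), SETD1A (1.19) and KMT2E (1.16), and 7 of 7 were called higher where 35.8% of genes were called higher and 71.1% in either direction. The libraries of granule and cytosol did not overlap for any member in either line, which held in the upward direction for 36% of all genes in WT and 38.1% in WDM. The estimate was lower in WDM than in WT for every member, by 0.39 (KMT2E) to 0.90 (KMT2A) on the log2 scale, but the difference between the lines was not called for any of them (adjusted p 0.833 for each). The members share libraries, so a common direction is not 7 separate observations. An unadjusted p under 0.05 was found for SETD1B alone, DESeq2 called 0 members, and edgeR called 1 gene of 18141. The uneven cytosol libraries described above enter these ratios. The difference between the lines, without WT tetracycline replicate 1, ran from -0.71 (KMT2E) to -1.6 (KMT2A), with KMT2D at -1.59, and edgeR again called 0 of 7, with adjusted p-values from 0.0809 (KMT2A) to 0.173 (SETD1A). Of 4 nuclear-retained RNAs tested, 3 were also higher in granules, NEAT1 by a log2 fold change of 4.65 in WT and 3.58 in WDM, KCNQ1OT1 by 3.60 and 3.13 and MALAT1 by 1.85 and 1.23. SNHG14 was not called (log2 0.02 and -0.24). The summed level of the list ran from 2354 to 3384 CPM in the granule libraries without arsenite. The share of nuclear RNA in the members' enrichment was not tested.

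**Figure D3:**
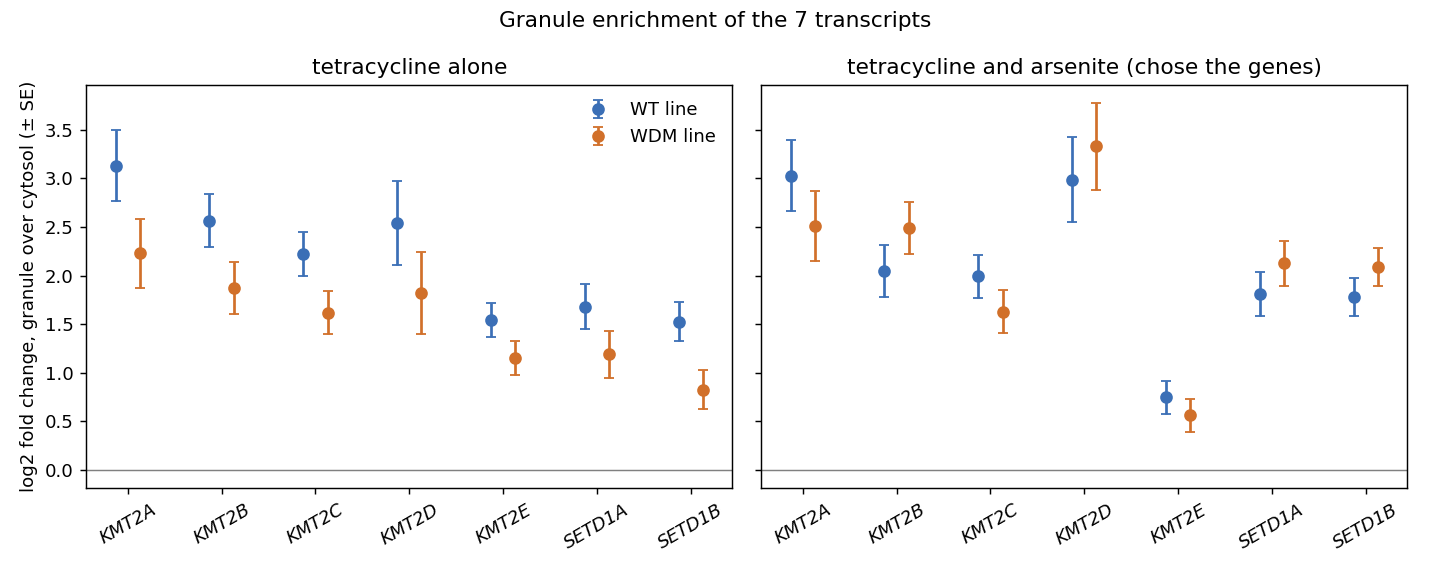
Granule over cytosol log2 fold change of each member with its standard error (edgeR, 3 libraries a group), with tetracycline alone on the left and with arsenite on the right, where the values chose the genes. Without arsenite the WDM estimate is below the WT estimate for all 7, and under arsenite KMT2E drops to 0.75 in WT and 0.56 in WDM.

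Granule enrichment rose with transcript length over all protein-coding genes, and the members were set against genes of their own length. Spearman's rho between the longest transcript and the log2 fold change was 0.453 in WT and 0.477 in WDM with tetracycline alone, across 13584 genes, which are not independent replicates and which share the same libraries. Genes with transcripts of more than 12000 bases had a median log2 fold change of 1.51 in WT, with 10% of them above 2.77. KMT2A lay above that mark, and KMT2D and KMT2C between it and the median. KMT2D was at 3.39 without WT tetracycline replicate 1, above the mark of the full fit, which was not recomputed without that library. Genes of 8000 to 12000 bases had a median of 0.93 and a 90th percentile of 2.43, which KMT2B exceeded and SETD1B did not reach. Genes of 6000 to 8000 bases had a median of 0.47 and a 90th percentile of 2.11, and SETD1A and KMT2E lay between these. In WDM no member exceeded the 90th percentile of its length class, and all 7 lay above the median of theirs, SETD1B narrowly at 0.83 against 0.77. The members had been chosen for granule enrichment under arsenite in the same lines, so their place above these medians is a description. Among the 7 members themselves rho with length was 0.393 in both lines. KMT2B and SETD1B are nearly the same length, 8485 and 8557 bases, with enrichments of 2.57 and 1.52 in WT.

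**Figure D4:**
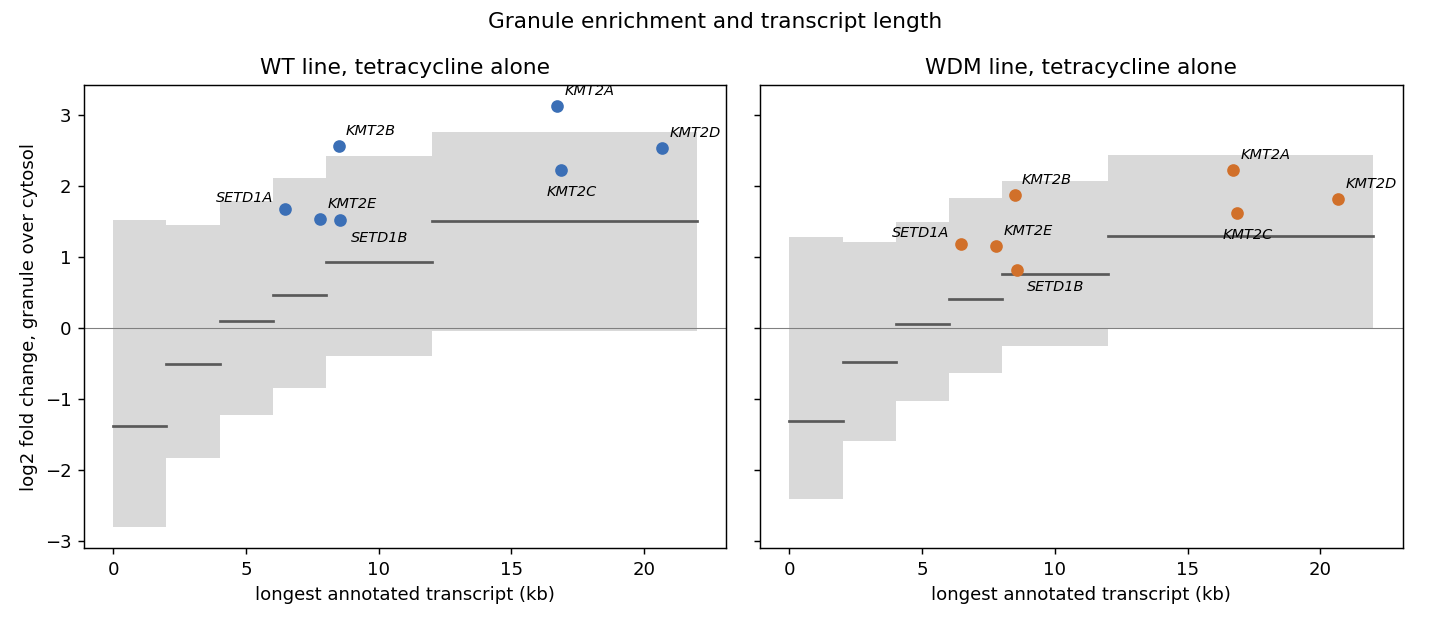
Granule over cytosol log2 fold change with tetracycline alone against the longest annotated transcript in kb. Grey bands span the 10th to 90th percentile of protein-coding genes in each length class and dark lines are the medians; every member lies above the median of its class, and KMT2A and KMT2B lie above the band in WT.

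The subunits that work with these enzymes were split between the fractions. Of 16 COMPASS partners 15 could be tested, and with tetracycline alone 6 were higher and 8 lower in WT granules, with a median log2 fold change of -0.35, and 5 were higher and 8 lower in WDM, with a median of -0.31. Over all genes 39.5% were called higher and 36.2% lower in WT, and 35.8% and 35.3% in WDM, so the share of partners called higher was near that of all genes. The partners with the largest increases were NCOA6 (log2 1.54 in WT, 1.25 in WDM) and KDM6A (1.48 and 1.2), which are subunits of the KMT2C and KMT2D complexes, and HCFC1 in WT (1.44), a subunit of the SETD1 and KMT2A complexes whose value in WDM was 0.64 and was not called. Their longest transcripts measure 9311, 12117 and 8876 bases. The largest decreases were in DPY30 (log2 -2.08 in WT, -1.75 in WDM), a core subunit shared by all these complexes, of BOD1 (-1.53 and -1.39), and of PSIP1 (-1.01 in WT), the chromatin tether of KMT2A, which measure 1519, 1921 and 3364 bases. In WDM the third largest decrease was that of WDR82 (-0.75), the subunit that sets the SETD1 complexes apart. Of the core subunits, ASH2L was lower (-0.47 in both lines), WDR5 was lower (-0.35 and -0.31) and RBBP5 was not called (-0.06 and 0.00).

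Other lysine methyltransferases were mixed. Of 21 tested, 12 were called higher in WT granules with tetracycline alone and 6 lower, against 13 and 6 in WDM, with medians of 0.46 and 0.36. Over all genes 39.5% were called higher and 36.2% lower in WT, and 35.8% and 35.3% in WDM. The largest increases were in SMYD3 (log2 3.44 in WT, 2.88 in WDM), PRDM2 (1.86 and 1.25) and ASH1L (1.82 and 1.43), an enzyme for lysine 36 of H3. SMYD3 has a longest transcript of 1863 bases, so it is not among the long ones. The largest decreases were in KMT5A (-1.08 and -0.84), which places monomethylation on lysine 20 of H4, and in KMT5C (-0.61 and -0.83), SUV39H2 (-0.77 and -0.63) and SUV39H1 (-0.58 and -0.73). Of the 5 demethylases of lysine 4, which remove the mark that the members write, KDM5A (1.33 and 1.13), KDM5B (0.86 and 0.72) and KDM5C (0.46 and 0.39) were higher in both lines, KDM1A was lower (-0.95 and -0.76), and KDM1B was lower in WT (-0.34) and not called in WDM (-0.18).

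Under arsenite, the comparison by which the members were chosen, KMT2D and KMT2A stood near the top of all genes and KMT2E did not. Ranked from the most granule-enriched of 18141 genes, KMT2A was at place 31 and KMT2D at 35 in WT, and KMT2D at 13 and KMT2A at 135 in WDM. KMT2D had 578, 597 and 601 CPM in WT granules against 77.4, 62.5 and 68.2 in cytosol (log2 2.99, SE 0.439), and 694, 1086 and 1044 against 109, 90.4 and 63.4 in WDM (log2 3.33, SE 0.444). KMT2A had 692, 523 and 643 CPM against 84.4, 65.6 and 61.3 in WT (log2 3.03) and 481, 572 and 707 against 123, 78.1 and 88.7 in WDM (log2 2.51). KMT2B (log2 2.05 and 2.49 in WT and WDM), KMT2C (1.99 and 1.63), SETD1A (1.81 and 2.13) and SETD1B (1.78 and 2.09) ranked between places 143 and 1149. KMT2E was at 0.75 and 0.56, places 5179 and 6174, with 151, 128 and 130 CPM in WT granules against 78.1, 80.7 and 68 in cytosol, so it was not among the most enriched transcripts although its name is in the family. Called higher in these comparisons were 35% of genes in WT and 36.3% in WDM, and in either direction 70.5% and 72%. The change of the ratio with arsenite, which shares the same libraries, was highest for KMT2D (log2 0.45 in WT, 1.51 in WDM), SETD1B (0.26 and 1.26) and SETD1A (0.13 and 0.94), and KMT2E was negative in both lines (-0.80 and -0.59), as it was under every alternative run. KMT2B was at -0.52 in WT and 0.61 in WDM, KMT2A at -0.10 and 0.28 and KMT2C at -0.23 and 0.01. Over all genes the median of this change was -0.21 in WT and -0.17 in WDM. In WT KMT2A, KMT2C and KMT2B lay at percentiles 55.1, 48.7 and 34.8 of all genes. In WDM the change rose with GC content over protein-coding genes, from a median of -0.39 below 40% to 0.23 at 60% and above. Spearman's rho was 0.368 there and -0.06 in WT. The part of GC content in the members' values was not tested. The WT signs of KMT2D and SETD1A rest on WT tetracycline replicate 1 in cytosol. Without it KMT2D was at -0.44, SETD1A at -0.27, SETD1B at 0.02 and KMT2A at -0.81. In WDM, without tetracycline replicate 1 in cytosol, KMT2A was at -0.12 and KMT2C at -0.28.

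Within the granule fraction, arsenite was followed by higher levels of SETD1A, SETD1B and KMT2D in both lines, and in WDM of KMT2A, KMT2B and KMT2C as well. The arsenite libraries of this comparison also entered the one that chose the members. In WT, SETD1B went from 48.7, 49.6 and 31.5 CPM with tetracycline alone to 91.6, 84.9 and 99.3 with arsenite (log2 1.01, SE 0.188, edgeR adjusted p 0.000262). SETD1A went from 59.6, 70.7 and 50.9 to 106, 114 and 124 CPM (log2 0.85, SE 0.171, adjusted p 0.00058), and KMT2D from 379, 478 and 229 to 578, 597 and 601 (log2 0.63, SE 0.206, adjusted p 0.0221). For these 3 genes and KMT2C no arsenite library was as low as the highest library without it, which held for 25.8% of all genes. KMT2D lost its call without WT tetracycline replicate 3, the low library (log2 0.35, adjusted p 0.209), and also without WT arsenite replicate 1 (adjusted p 0.0526) or 3 (0.07). The other 4 were not called, with log2 fold changes of 0.37 (KMT2C), 0.25 (KMT2A), 0.01 (KMT2E) and -0.08 (KMT2B). That made 3 of 7 higher and 0 lower, where 16.5% of 18366 genes were called higher and 30.6% in either direction.

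In WDM granules 6 of 7 members were called higher, where 18.7% of genes were called higher and 36.3% in either direction. These arsenite libraries, too, entered the choice of the members, so the count is a description and nothing is read from its distance to that share. The estimates were larger than in WT, but the difference between the lines was not called for any member in the main fit. SETD1B went from 30.5, 29.8 and 27.6 to 89.4, 157 and 120 CPM (log2 2.03, SE 0.193, edgeR adjusted p 5.9e-08). SETD1A went from 32.6, 35.7 and 30.8 to 88.9, 149 and 117 CPM (log2 1.81, SE 0.176, adjusted p 7.86e-08). KMT2D went from 270, 270 and 260 to 694, 1086 and 1044 CPM (log2 1.79, SE 0.211, adjusted p 7.62e-07). For each of these genes the lowest library with arsenite lay above the highest without it, as it did for 6 of 7 members and 25.1% of all genes. KMT2B went from 110, 130 and 126 to 214, 295 and 299 CPM (log2 1.11, SE 0.169, adjusted p 1.76e-05). KMT2A went from 291, 365 and 369 to 481, 572 and 707 CPM (log2 0.75, SE 0.187, adjusted p 0.00267), and KMT2C from 578, 559 and 554 to 766, 817 and 866 (log2 0.50, SE 0.162, adjusted p 0.0164). The call of KMT2C was lost when WDM tetracycline replicate 2 or 3 or WDM arsenite replicate 3 was left out (adjusted p 0.0612, 0.0711 and 0.0612). KMT2E, at 142, 116 and 116 CPM without arsenite and 142, 155 and 147 with it, overlapped and was not called (log2 0.21, adjusted p 0.275). The related lists were mixed. Of 15 COMPASS partners 3 were called higher and 2 lower with arsenite in WT granules and 5 higher and 3 lower in WDM, and of 21 other lysine methyltransferases the counts were 7 up and 4 down in WT against 9 up and 3 down in WDM. Of the 5 lysine 4 demethylases 2 were higher in WT and 0 in WDM. Over all genes 16.5% were called higher and 14.1% lower in WT, and 18.7% and 17.7% in WDM. Of 4 nuclear-retained RNAs, MALAT1 was lower in both lines (log2 -0.82 and -0.62), SNHG14 was higher in WT (log2 1.32), and the others were not called.

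Whether the arsenite change of these granule RNAs differed between the lines was tested as the interaction of line and arsenite. This test was added after the values were seen, and its arsenite libraries also entered the comparison that chose the members. The estimate was positive for all 7 members, 1.19 for KMT2B (SE 0.238), 1.16 for KMT2D (SE 0.291), 1.01 for SETD1B (SE 0.264), 0.96 for SETD1A (SE 0.242), 0.50 for KMT2A, 0.20 for KMT2E and 0.13 for KMT2C. None was called by edgeR, with adjusted p-values of 0.173 for KMT2B, 0.254 for KMT2D, SETD1A and SETD1B, and 0.424 or more for the others. These 4 had an unadjusted p under 0.05, as did 2329 of the 18366 genes, of which 0 were called. DESeq2 called 0 members. Without the low-count filter all 4 were called (adjusted p 0.0019 for KMT2B, 0.00265 for KMT2D, 0.0431 for SETD1A and 0.0303 for SETD1B), as were 44 of all genes in that fit, and without WT tetracycline replicate 3 KMT2B and KMT2D were (adjusted p 0.0319 and 0.0481). Without WDM arsenite replicate 1 KMT2B was called (adjusted p 0.0476).

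Base composition went with the size of these interaction estimates, none of which was called in the main fit. Whether GC content was a cause was not tested. The 4 GC-rich members are those with the largest interaction estimates, and over protein-coding genes the interaction estimate rose with GC content, from a median of -0.36 below 40% GC to 0.29 at 60% and above (Spearman's rho 0.576 across genes of the same libraries). The arsenite change in WDM granules rose likewise, from a median of -0.29 to 0.27 (rho 0.36), and that in WT granules did not (rho -0.02). When each library's trend with GC content was removed, an alternative chosen after seeing the data, the arsenite steps in WDM granules were 1.73 for SETD1B, 1.5 for SETD1A, 1.51 for KMT2D, 0.82 for KMT2B, 0.74 for KMT2A and 0.60 for KMT2C, and KMT2E was called as well (0.39, adjusted p 0.0158), making 7 of 7. With the replicate number as a block in the same fit the count was also 7. Calls over all genes in WDM granules, 6675 in the main fit, ran from 5063 to 6686 over the alternatives. The arsenite libraries also entered the comparison that chose the members, so these counts are a description. In WT granules the values became 1.04, 0.86 and 0.66 for SETD1B, SETD1A and KMT2D, and KMT2C was called in addition (0.39, adjusted p 0.0453). With this removal calls over all genes in WT granules went from 5620 to 6212. The interaction estimates were then 0.87 for KMT2B, 0.84 for KMT2D, 0.70 for SETD1B and 0.64 for SETD1A, each with an adjusted p of 0.629.

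**Figure D5:**
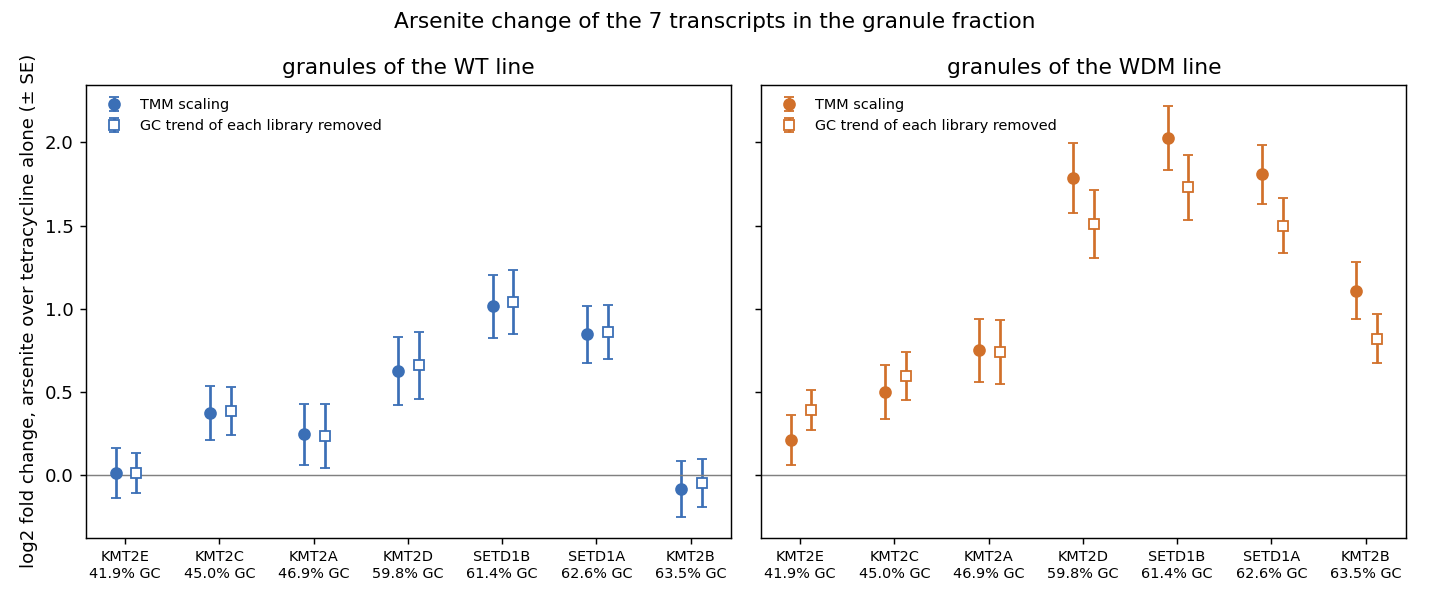
Arsenite over tetracycline alone in the granule fraction, as log2 fold change with its standard error, for WT on the left and WDM on the right, with members ordered by GC content. Filled points are the TMM-scaled fit and open squares the fit with each library's GC trend removed; in WDM the 4 GC-rich members lie at 1.11 to 2.03 and at 0.82 to 1.73 after removal.

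In cytosol, arsenite was followed by higher levels of KMT2E and SETD1B in both lines and of SETD1A in WDM. The arsenite cytosol libraries also entered the comparison that chose the members, so the counts below are a description. KMT2E went from 67.2, 41.1 and 32.7 to 78.1, 80.7 and 68 CPM in WT (log2 0.71, SE 0.184, edgeR adjusted p 0.0104) and from 65.6, 45.2 and 58.2 to 103, 96.2 and 83.6 in WDM (log2 0.73, SE 0.182, adjusted p 0.00811). SETD1B went from 21.1, 13 and 13.7 to 27.1, 23.6 and 23.9 CPM in WT (log2 0.66, adjusted p 0.00551) and from 19.7, 13.4 and 16.9 to 25.9, 31.9 and 22.8 in WDM (log2 0.69, adjusted p 0.00417). SETD1A was called in WDM (log2 0.79, adjusted p 0.0263) and not in WT (log2 0.62, adjusted p 0.0632), and the difference between the lines was not called (0.17, adjusted p 1). In WT it was called by DESeq2 (adjusted p 0.0297), by library size alone (0.0482) and with the replicate block (0.0246), and in WDM its call was lost with no low-count filter (0.05). That made 2 of 7 higher in WT, where 13.7% of 16670 genes were called higher and 29% in either direction, and 3 of 7 in WDM, where 14.1% were called higher and 28.8% in either direction. Scaling moved this background. By library size alone 76.7% of all calls were higher in WT, against 47.1% with TMM, and 66.8% in WDM, against 48.8%. Nuclear-retained RNAs moved the same way, KCNQ1OT1 by a log2 fold change of 1.37 in both lines and NEAT1 by 1.10 in WT, while NEAT1 in WDM (0.65) and MALAT1 and SNHG14 in both lines were not called. Their part in the members' values was not tested. KMT2A, KMT2B, KMT2C and KMT2D had log2 fold changes of 0.08 to 0.51 in WT and 0.21 to 0.42 in WDM and were not called. Without WT tetracycline replicate 1, the library high in all members, 7 of 7 were called in WT, from 0.84 (KMT2B) to 1.01 (SETD1A) among the 5 that gained a call, and calls over all genes went from 4838 to 7204. Without WT tetracycline replicate 2 KMT2E lost its call in WT (adjusted p 0.0514). SETD1A lost its call in WDM when WDM tetracycline replicate 2 or 3, or WDM arsenite replicate 1 or 2, was left out (adjusted p 0.0523 to 0.125). The interaction of line and arsenite in cytosol was called for 0 of 7 members and 0 of 16670 genes, with 0 members and 331 genes at an unadjusted p under 0.05 and 0 members called by DESeq2.

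Between the lines, no member was called in cytosol in the fit of all cytosol libraries. Those with arsenite also entered the comparison that chose the members. The counts were 0 of 7 in untreated, tetracycline and arsenite cytosol, where 9.78%, 12.6% and 10.4% of genes were called, with 0 of 7 at an unadjusted p under 0.05 in each and 0 called by DESeq2. With tetracycline, by library size alone 56% of all calls were higher in WDM, against 45.9% with TMM. In untreated cytosol the estimate shared its spread with the uneven tetracycline groups. KMT2C had 153, 126 and 136 CPM in WT and 176, 177 and 174 in WDM, KMT2E had 45.8, 40.5 and 45.6 and 56.8, 60.2 and 52.7, and SETD1A had 15.3, 12.5 and 15.7 and 11.6, 12.1 and 11.8. The libraries of the lines did not overlap for these 3 genes, nor for KMT2B and KMT2D, which were higher in WDM, and SETD1B, which was lower, making 4 of 7 higher and 2 lower where 28.1% and 16% of all genes did so. Overlap was judged on CPM scaled over all 30 libraries. The main fit, scaled over the cytosol libraries alone, called 4.19% of genes higher and 5.6% lower. When only the 6 untreated libraries were fitted, KMT2C (log2 0.28, edgeR adjusted p 0.000125), KMT2D (0.25, adjusted p 0.0112) and KMT2E (0.30, adjusted p 0.000435) were called higher and SETD1A (-0.36, adjusted p 0.00911) and SETD1B (-0.29, adjusted p 0.0331) lower in WDM. In that fit 5463 of all genes were called, against 1631. Without WT tetracycline replicate 1, KMT2A, KMT2B, KMT2C, KMT2D and KMT2E were called higher in WDM with tetracycline, by 0.62 (KMT2E) to 1.09 (KMT2D), and calls over all genes went from 2108 to 4573.

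In granules with tetracycline alone, SETD1A was lower in WDM, at 32.6, 35.7 and 30.8 CPM against 59.6, 70.7 and 50.9 in WT (log2 -0.92, SE 0.175, edgeR adjusted p 0.000961). It was the only member called, 1 of 7, where 2.95% of genes were called lower and 5.55% in either direction. The estimates of the other 6 were also negative, from -0.08 (KMT2E) to -0.60 (SETD1B, adjusted p 0.0612). Without WT tetracycline replicate 3, KMT2A, KMT2B, KMT2D and SETD1B were called lower too, which made 5 of 7. The shares above are those of the main fit. Calls over all genes, 1019 in the main fit, ran from 570 to 1330 over the alternatives. SETD1A lies in a stretch of chromosome 16 whose genes were lower in WDM. Of the 10 tested genes on either side of it, 19 of 20 had a negative estimate in untreated cytosol (median log2 -0.54, 11 called) and 17 of 20 in granules with tetracycline (median -0.54, 6 called). In granules with arsenite that median was -0.22, and SETD1A itself was not called, at 106, 114 and 124 CPM in WT and 88.9, 149 and 117 in WDM (log2 0.04, adjusted p 0.919).

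In granules with arsenite, KMT2B and KMT2D were higher in WDM. These libraries also entered the comparison that chose the members, so the count below is a description. KMT2B had 214, 295 and 299 CPM in WDM against 148, 160 and 178 in WT (log2 0.73, SE 0.168, edgeR adjusted p 0.00593), and KMT2D had 694, 1086 and 1044 against 578, 597 and 601 (log2 0.67, SE 0.205, adjusted p 0.0435). The groups did not overlap for either, which held in the upward direction for 13.2% of all genes. That made 2 of 7, where 4.11% of genes were called higher and 7.95% in either direction, and by library size alone 66% of all calls were higher, against 51.7% with TMM. The calls were sensitive to single libraries. Without WT arsenite replicate 1 neither gene was called (adjusted p 0.0695 and 0.208). KMT2D lost its call without each of WT arsenite replicates 2 and 3 and WDM arsenite replicates 2 and 3 as well (adjusted p 0.0589 to 0.138). Both genes are GC-rich, and the line difference rose with GC content over all protein-coding genes (rho 0.467, from a median of -0.24 below 40% GC to 0.26 at 60% and above). With each library's GC trend removed neither was called, at 0.49 for KMT2B (adjusted p 0.0509) and 0.46 for KMT2D (adjusted p 0.202). The part of GC content in these line differences was not tested.

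Across the 10 groups the 7 members had similar profiles, and they had been chosen by a ratio between some of these groups. Pearson's r between members over the 10 group means of log2 CPM ran from 0.882 to 0.992, with KMT2A and KMT2C at the high end and SETD1A and SETD1B at 0.984. These are descriptions over groups that differ mainly by fraction. Among 11505 named genes that averaged 5 CPM or more, the genes most like the members' mean profile over the 10 groups were TET3 and ZNF609 (both r 0.997), TNRC6C (0.996), TECPR2 (0.995) and EP400 (0.995). Their longest transcripts measure 12060, 9006, 10391, 8704 and 12289 bases, all above the 90th percentile of protein-coding genes.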

How the data were processed

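The 30 libraries were stranded total RNA after ribosomal RNA removal, per the labels' protocols, and the authors deposited raw counts per gene for all of them in a table of 60664 genes. Trimmomatic, STAR, Picard, featureCounts and GRCh38 are named in the submitters' processing notes. Versions, strand setting and the treatment of reads in overlapping genes or near-identical copies are not given in the sources used here. Gene models came from GENCODE v44, in which 60463 of the gene IDs were found, 56693 with identical start and end. Among the members KMT2C and SETD1B were identical, and KMT2A, KMT2B, KMT2D, KMT2E and SETD1A differed in start or end. The gene models counted for these may therefore differ from those described here.

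Groups came from the labels. Counts were tested with edgeR 4.0.16 (TMM, robust quasi-likelihood test, filterByExpr with a minimum count of 10 and a minimum total of 15), and p-values were Benjamini-Hochberg adjusted over all genes tested, with calls at 0.05. Cytosol libraries (16670 genes tested), granule libraries (18366) and both fractions together (18141) were fitted separately, each with a term per group. The scripts were tested on simulated data. Depth of 5906167 to 27419145 counts puts 3 counts at 0.109 to 0.508 CPM, far below the members. The members and lists were chosen with earlier results of these data known. Named were the 7 members, up to 3 called genes a direction of each list by size of change with further genes of the lists chosen after their values were seen, and the 5 genes with the highest correlation to the members' mean profile. Replicate numbers come from sample titles with nothing saying what they share. Deviations of same-numbered libraries correlated above 0.1 in all 3 pairs for arsenite against tetracycline in WDM granules (0.531, 0.14 and 0.298) and for granule against cytosol in WDM with arsenite (0.435, 0.7 and 0.388), and in no other comparison. Alternatives were DESeq2 1.42.0, other scalings, no filter, fits of the compared groups, a replicate block, GC trend removal and leaving out each library. GC trend removal and the interaction of line and arsenite in granules were chosen after seeing the data.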

Additional observations from a re-analysis of the deposited data

How the results depend on the processing

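The enrichment of all 7 members in granules with tetracycline alone kept its direction and its calls in both lines under every alternative run, and no called value of a member reversed. Of the tested values of members, 87 reversed, 68 of them on leaving out a library, and none of these was called to begin with. Of the values given as a description, the change of the granule ratio with arsenite changed sign 14 times, for KMT2A and KMT2C in WDM and KMT2A, KMT2D and SETD1A in WT, 12 of them on leaving out a library. KMT2A in WT was 0.107 with no filter, and KMT2C in WDM was -0.00415 with the replicate block. The cause of each change was not tested. The number of members called was 5 when the untreated lines were fitted alone, 1 for tetracycline in WDM cytosol with no filter and also with the replicate block, 4 with the replicate block and 1 with the compared groups alone for arsenite in WT cytosol, 2 by library size, 3 with no filter and 2 by DESeq2 for the lines in tetracycline granules, 1 with RLE factors, 1 with the replicate block, 0 with the GC trend removed and 0 with the GC trend removed and a replicate block for the lines in arsenite granules, and 4 with no filter for the interaction of line and arsenite in granules. The replicate block changed no call of a member for arsenite in WDM granules, where deviations of same-numbered libraries correlated above 0.1 in every pair. Small values reversed as follows. KMT2E with tetracycline was -0.0156 (library size) and -0.0144 (replicate block) in WT and -0.0229 (library size), -0.0231 (no filter) and -0.00244 (replicate block) in WDM. For the cytosol interaction of line and arsenite, KMT2E was -0.00781 (library size), -0.00344 (no filter), -0.00618 (replicate block), -0.0204 (GC trend removed) and -0.00156 (compared groups alone), and SETD1B was -0.0136 (library size), -0.00226 (no filter) and -0.00168 (compared groups alone). For the lines in arsenite granules, KMT2C was -0.00962 (RLE factors) and -0.00957 (DESeq2), KMT2A 0.0118 (library size), and SETD1A -0.194 (GC trend removed) and -0.214 (with the replicate block as well). KMT2E with arsenite in WT granules was -0.00829 by library size.

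Leaving out each library in turn gave these ranges. Granule over cytosol with tetracycline in WT ran from 2.86 to 3.81 for KMT2A, 2.32 to 3.04 for KMT2B, 2.04 to 2.6 for KMT2C, 2.22 to 3.39 for KMT2D, 1.33 to 1.84 for KMT2E, 1.5 to 2.05 for SETD1A and 1.39 to 1.73 for SETD1B. For the lines in cytosol, KMT2A ran from -0.019 to 0.161 untreated; with tetracycline the members called ran from 0 to 5, KMT2A from -0.0633 to 1.01, KMT2B from -0.038 to 0.718, KMT2D from -0.229 to 1.09 and SETD1B from -0.0573 to 0.319; with arsenite SETD1B ran from -0.0265 to 0.211. For tetracycline in WT, KMT2A ran from -0.791 to 0.174, KMT2B from -0.373 to 0.359, KMT2C from -0.515 to 0.0642, KMT2D from -0.579 to 0.605, KMT2E from -0.317 to 0.207, SETD1A from -0.006 to 0.56 and SETD1B from -0.121 to 0.237. In WDM the members called ran from 0 to 1, KMT2A from -0.201 to 0.464, KMT2B from -0.0571 to 0.379, KMT2C from -0.196 to 0.305, KMT2D from -0.175 to 0.568 and KMT2E from -0.137 to 0.13. For arsenite in WT cytosol the members called ran from 1 to 7, KMT2A from -0.00729 to 0.959 and KMT2D from -0.216 to 0.968, and in WDM cytosol KMT2D ran from -0.0941 to 0.645. For the cytosol interaction, KMT2A ran from -0.564 to 0.516, KMT2B from -0.419 to 0.34, KMT2C from -0.495 to 0.184, KMT2D from -0.755 to 0.567, KMT2E from -0.305 to 0.217, SETD1A from -0.225 to 0.367 and SETD1B from -0.21 to 0.169. In granules the members called ran from 1 to 5 for the lines with tetracycline, from 0 to 2 for the lines with arsenite and from 0 to 2 for the interaction. With arsenite the line difference of KMT2A ran from -0.216 to 0.0477, KMT2C from -0.0569 to 0.076 and SETD1A from -0.153 to 0.209, and the arsenite change in WT of KMT2B from -0.272 to 0.0157 and of KMT2E from -0.0489 to 0.0536.

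Counts over all genes moved by more than 1.5 times between the main and another fit in most comparisons. They ran from 929 to 5463 (main 1631) for the untreated lines, 852 to 4573 (2108) for the lines with tetracycline in cytosol, 189 to 1766 (886) and 422 to 1435 (1050) for tetracycline in WT and WDM, 2440 to 7204 (4838) and 1921 to 5685 (4804) for arsenite in cytosol, 3157 to 6212 (5620) for arsenite in WT granules, 1094 to 2314 (1726) for the lines in arsenite cytosol, 570 to 1330 (1019) and 569 to 1719 (1460) for the lines in granules, and 0 to 44 (0) for the granule interaction of line and arsenite. With 3 libraries a group and uneven tetracycline cytosol groups, a missed call there does not show that a level was the same.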
